A study of Mus musculus with 2 samples.

Results

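The cytosolic ribosomal protein genes of the mouse were chosen by name, as symbols beginning Rps or Rpl and a digit together with Rplp0, Rplp1, Rplp2 and Rpsa, without the Rps6 kinases and the pseudogenes, and with at least 100 unique molecular identifiers (UMIs, the tags by which captured mRNA molecules are counted) over the sum of both count tables. 86 of the 32285 genes in the count tables carried such a name and 84 passed the minimum. These were 31 proteins of the small 40S subunit, 46 of the large 60S subunit, 6 paralogs (Rpl7l1, Rpl22l1, Rpl36al, Rpl39l, Rps27l and Rps27rt) and Rps19bp1, whose product binds Rps19 and is not itself a ribosomal protein. Rpl3l with 21 UMIs and Rpl10l with 1 UMI fell under the minimum, and Rpl39l with 778 UMIs was the lowest gene above it. The name rule leaves out Fau and Rack1, which also encode proteins of the ribosome, and these are given separately.

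A ribosome is built from a 40S and a 60S subunit, in which most proteins are present in a single copy and are joined to ribosomal RNA in the nucleolus. Most ribosomal protein mRNAs start with a C and a run of pyrimidines, the 5′ terminal oligopyrimidine (TOP) tract, through which mTOR signalling and LARP1 adjust their translation together. In the erythroid lineage, heterozygous loss of single ribosomal protein genes causes Diamond-Blackfan anaemia, and maturing red cells finally lose their ribosomes altogether.

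The measurement was droplet single-cell RNA-seq (10x Genomics, counting the 3′ end of each mRNA once, so that levels of genes are not divided by length) of cells of long bone with its marrow. The cells came from 3 male INK-ATTAC mice, 24 months old and untreated. These animals carry a transgene in which the p16 promoter drives an inducible caspase 8, and all cells came from them, with no young or treated animals for comparison. The cells were depleted of lineage-positive cells, gated as CD45- and live, and pooled. The series has 2 count tables, labelled replicates 1 and 2, but these shared 10928 of 11056 barcodes, so they were summed per barcode and treated as 1 biological sample, for which no p-value can be given. Their summed squared differences were 0.559 per summed UMI, where counts of independent molecules would give about 1, so a summed UMI is not 1 molecule. UMI numbers, depths and minimums below are those of the sum, while shares and CPM do not depend on it. All intervals are 95% intervals. Those of UMIs cover counting error only and were taken on the mean of the tables. Those of the percentage of cells with a UMI were taken over the cells of the summed tables.

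Of 9573 barcodes kept, with a median of 9857 UMIs in the summed tables, 6428 fell in clusters with erythroid markers, although the samples were labelled as mesenchymal. The other named classes were 1935 LEPR stromal-like, 141 fibroblast-like, 131 megakaryocyte-like, 50 endothelial-like and 43 plasma cell-like cells. The LEPR stromal marker list (12 genes) summed to 34389 CPM (UMIs scaled to the same total in each class) in LEPR stromal-like and 44.8 CPM in erythroid-like cells, and the erythroid list (14 genes) to 2451 and 32448 CPM. The other classes held between 2032 and 6133 CPM of the erythroid list. The 50 endothelial-like cells held 8081 CPM of the endothelial list (10 genes), but also 5471 CPM of the LEPR stromal list. They held 10381 CPM of the adipocyte list, from 2 of its 7 genes. The fibroblast-like cells held 26349 CPM of the fibroblast list (13 genes) and 22815 CPM of the osteoblast list (10 genes). The megakaryocyte-like cells held 31828.5 CPM of the megakaryocyte list (9 genes), 3729 CPM of the neutrophil list and 1931 CPM of the plasma cell list. The part of other cells in the ribosomal shares of these classes was not tested. The members were kept out of the genes used for clustering. Of the erythroid-like cells, 2447 lay in 4 clusters of low depth (median 6633 UMIs) with the stress and RNA-quality genes Hspa1b, Lars2 or Gm26917 among their leading genes, and 3 further clusters, led by Slfn14, Tufm and Igfbp4, stayed unnamed.

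The start of the gene is shown for members on which the results below turn, from RefSeq on GRCm38.p6, as 30 bases around the pyrimidine run nearest to the annotated start, or around the start itself where there is no run. Capitals mark a C followed by at least 7 bases that are C or T, and a sequence without capitals has no such run within 50 bases of the start. Rps2 (chr17:24720083-24720112, plus strand) and Rplp0 (chr5:115559452-115559481, plus) were the members with the lowest ratio of stromal to erythroid-like levels over cells of all depths, Rps27 (chr3:90213632-90213661, minus), its intronless copy Rps27rt (chr9:114982725-114982754, minus) and Rpl37a (chr1:72711275-72711304, plus) were among those with the highest, and Rpl39l (chr16:10170191-10170220, plus) was the exception, shown beside its parent Rpl39 (chrX:37085198-37085227, minus).
Rps2: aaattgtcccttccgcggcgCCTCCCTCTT
Rplp0: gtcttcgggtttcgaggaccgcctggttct
Rps27: ttccgctttcgCTCCTTTCCggcggtgacg
Rps27rt: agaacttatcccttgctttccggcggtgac
Rpl37a: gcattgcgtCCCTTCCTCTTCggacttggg
Rpl39: gcctctagcgaCTTCTTCTaatcgcgttct
Rpl39l: aacacccactgCCTCTCCCTagctcccagg
The annotated start need not be the cap site. The run begins 40 bases after it in Rps2, 24 after it in Rpl37a and 6 after it in Rpl39, at position -2 in Rps27, and at -26 in Rpl39l, where the whole run of 9 bases lies before the annotated start.

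Over all members, 64 of 84 had a promoter in the RefSeq table. A run of this kind, read on the gene's own strand from 50 bases before to 50 after the start, stood in 52 of the 64 (81.2%), against 32.0% of 27025 genes in the table. The ETS family motif CCGGAAG, searched on both strands over 300 bases, stood in 26 of 64 (40.6%), against 9.93% of all genes, and the YY1 motif AAGATGGC in 6 of 64 (9.38%), against 3.19%. The GATA motif AGATAA, for the family of the erythroid factor GATA1, stood in 4 of 64 (6.25%), against 12.7% of all genes. The TATA box letters TATAAA, on the gene's own strand, stood in 6 of 64 (9.38%), against 9.77%. These are matches of letters and not sites of binding.

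The share of each cell's mRNA given to ribosomal proteins differed between the cell classes. In erythroid-like cells, members took 32.6% of all UMIs (32.5% and 32.6% in the single tables). In megakaryocyte-like cells, which share a progenitor with the erythroid lineage, they took 24.1% (interval 24.0 to 24.1%). The share was 18.3% (18.2 to 18.4%) in fibroblast-like cells, 13.0% (13.0 to 13.1%) in plasma cell-like cells and 12.1% (11.9 to 12.3%) in endothelial-like cells. LEPR stromal-like cells, the marrow cells that make CXCL12 and KIT ligand for blood stem cells, were lowest at 6.71% (6.69 to 6.73%), with 6.70% and 6.72% in the single tables.

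No neighbours in this order overlapped in their counting intervals, but the cells of a class varied widely. The median cell held 5.37% in LEPR stromal-like cells (quartiles 4.16 and 7.04%) and 32.1% (quartiles 25.5 and 34.98%) in erythroid-like cells. Only 2 of 1935 LEPR stromal-like cells lay above the erythroid-like median, and 37 of 6428 erythroid-like cells lay below the LEPR stromal-like median. The quartiles of plasma cell-like cells (6.48 and 13.4%, median 9.44%) and of endothelial-like cells (7.86 and 14.0%, median 10.5%) overlapped each other and those of fibroblast-like cells (10.8 and 20.4%, median 15.5%). The quartiles of megakaryocyte-like cells were 11.2 and 28.9% (median 22.2%), and overlapped those of all these classes and of erythroid-like cells. In plasma cell-like cells immunoglobulin mRNA took 40.9% of all UMIs, and members took 22.0% of the remainder.

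**Figure D1:**
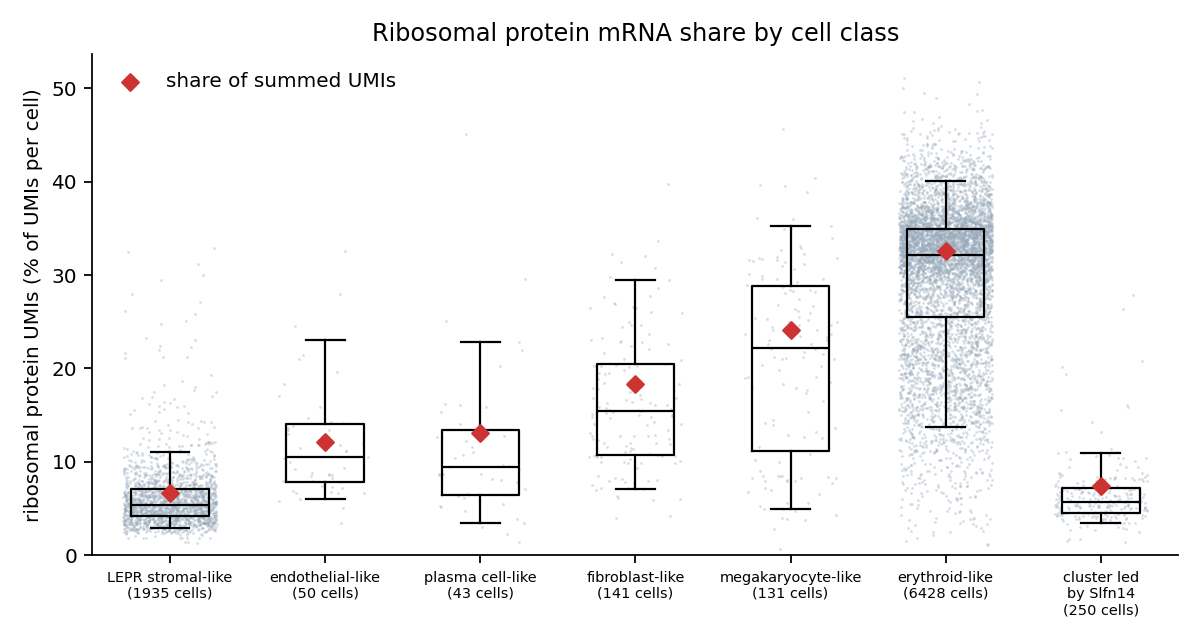
Ribosomal protein UMIs as a percentage of all UMIs of each cell (vertical axis), by cell class (horizontal axis). Points are cells, boxes the median and quartiles, whiskers the 5th and 95th percentiles, and red diamonds the share of summed UMIs, from 6.71% in LEPR stromal-like to 32.6% in erythroid-like cells; the cluster led by Slfn14, with erythroid markers, lies at 7.42%.

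The LEPR stromal-like and erythroid-like cells also differed in depth, with medians of 5138 and 28734 UMIs, and in UMIs of rRNA-like genes (Gm42418, Gm26917 and AY036118), which took 9.92% and 2.23%. Within cells of 2000 to 5000 UMIs the members took 5.24% in the stromal and 22.0% in the erythroid cells, and within 10000 to 20000 UMIs 9.59% and 28.6%. At matched depth the stromal share thus stayed the lower, and from 2000 UMIs upwards deeper cells had the higher share in both classes. Free RNA in droplet data gives UMIs in cells that do not make a gene. Globins, which stromal cells do not make, took 0.188% of UMIs in LEPR stromal-like cells against 2.54% in erythroid-like cells, and 10 other erythroid genes summed to 571 against 7100 CPM. In stromal cells of 2000 to 5000, 5000 to 10000 and 10000 to 20000 UMIs, globins took 0.195%, 0.140% and 0.283%. At 10000 to 20000 UMIs the median stromal cell held 7.28% of members, below the summed 9.59%. How much of the stromal ribosomal protein count was such free RNA was not tested.

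Of the 84 members, 81 were at least 2-fold lower in LEPR stromal-like than in erythroid-like cells and 1 was at least 2-fold higher. Over all 12957 genes tested in this comparison 19.3% were that much lower and 46.3% that much higher. The median log2 ratio was -2.26 over the members and 0.79 over all genes. For the summed members the log2 ratio was -2.28 (interval -2.28 to -2.27). All 77 genes of the 40S and 60S subunits were lower, from -3.13 for Rps2 to -1.59 for Rps27, and 75 of the 84 members lay within 1.5-fold of the median member. In cells of 2000 to 10000 UMIs, 75 of 84 members were at least 2-fold lower in the LEPR stromal-like cells and 1 was at least 2-fold higher, where 20.1% and 42.4% of 12929 genes were. Of the 1961 erythroid-like cells of that depth 1788 lay in the low-depth clusters, so that depth and cluster cannot be told apart there.

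Both subunits gave nearly the same ratio. The median log2 ratio was -2.32 over the 40S and -2.27 over the 60S genes, and 40S genes took 43.6% (43.5 to 43.8%) of member UMIs in LEPR stromal-like and 44.4% (44.3 to 44.4%) in erythroid-like cells. The 40S share of the other named classes lay between 43.6% in megakaryocyte-like and 44.5% in endothelial-like cells.

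Of the 40S genes with the lowest ratios, Rps2, which lies near the mRNA entry channel, stood at 822 CPM (798 to 846) in LEPR stromal-like and 7175 CPM in erythroid-like cells. Rps18, in the head of the subunit, stood at 976 and 6581 CPM, with a log2 ratio of -2.75. On the 60S side Rplp0, the base of the stalk that recruits elongation factors, stood at 872 and 6564 CPM (-2.91), Rpl32 at 947 and 6168 CPM (-2.70) and Rpl14 at 567 and 3641 CPM (-2.68). The stalk proteins bound to Rplp0 had ratios of -2.35 (Rplp1) and -2.18 (Rplp2).

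The subunit genes with the highest ratios were Rps27, a zinc finger protein of the 40S subunit, at 748 and 2243 CPM, and Rpl37a at 1351 and 4233 CPM (-1.65). They were followed by Rpl38 at -1.84, Rpl35a at -1.89 and Rps21 at -1.90. Against the summed members, Rps27 was 0.69 higher and Rpl37a 0.63 higher on the log2 scale, and Rps2 was -0.85. The order was not kept in cells of 2000 to 10000 UMIs, where the erythroid-like cells came mostly from the low-depth clusters. Among these cells the difference from the summed members was 0.66 for Rps27, 0.47 for Rps21, 0.23 for Rpl35a, 0.02 for Rpl38 and -0.26 for Rpl37a, and 14 of 77 subunit genes lay above Rps27, led by Rpl10 at 1.44. Of the genes with the lowest ratios, Rps18 stood there at -0.62, Rpl32 at -0.28, Rplp0 at -0.14, Rpl14 at -0.10 and Rps2 at 0.05, and the lowest subunit gene was Rpl36 at -1.40.

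**Figure D2:**
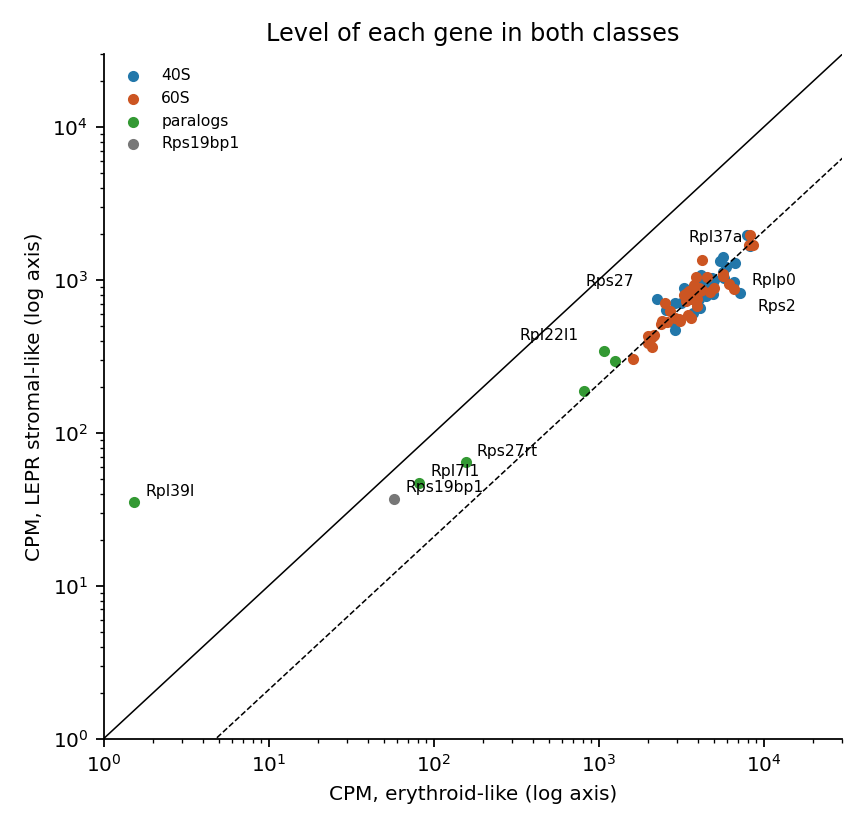
CPM of each of the 84 members in erythroid-like cells (horizontal, log axis) and LEPR stromal-like cells (vertical, log axis), coloured by group. The solid line marks equal levels and the dashed line the median log2 ratio of -2.26; Rpl39l alone lies above the line of equal levels.

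The paralogs varied more than the subunit genes, from a log2 ratio of -2.13 for Rps27l to 4.52 for Rpl39l. Rpl39l, a copy of Rpl39 known from the testis, stood at 35.2 CPM (30.4 to 40.5) in LEPR stromal-like cells and 1.53 CPM in erythroid-like cells, the interval of the ratio being 4.21 to 4.84, and at 14.2 CPM in fibroblast-like and 1.01 CPM in megakaryocyte-like cells. No UMI was seen in the 50 endothelial-like or the 43 plasma cell-like cells, where 3 counts would be 14.1 and 2.19 CPM. A UMI was found in 231 of 1935 LEPR stromal-like cells (11.9%, interval 10.5 to 13.5%) and in 47 of 6428 erythroid-like cells (0.731%, 0.538 to 0.971%), although the erythroid-like cells were deeper.

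Some of the erythroid-like cells with Rpl39l held many UMIs of it. The 47 cells held 320 UMIs over the summed tables, 16 of the 47 held at least 10 and the highest held 25. In the LEPR stromal-like cells 386 UMIs were spread over the 231 cells, with at most 6 in a cell. The parent gene Rpl39 followed the family, at 921 and 3803 CPM (-2.05). The transcripts of the 2 genes share no identical stretch longer than 38 bases, and within their last 200 bases none longer than 10 bases, so that their reads can be told apart. Rpl39l (ENSMUSG00000039209) lies on GRCm38 at chr16:10170226-10174911, and GENCODE M21 has no other gene overlapping it.

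Rpl22l1, the copy of Rpl22, stood at 341 and 1082 CPM in LEPR stromal-like and erythroid-like cells (-1.67) and at 168 CPM in plasma cell-like cells. Rpl36al stood at 295 and 1249 CPM (-2.08) and was as high in plasma cell-like cells, at 1250 CPM. Rps27l, a p53 target, stood at 187 and 818 CPM (-2.13), and Rpl7l1, which acts in 60S assembly, at 47.1 and 81.7 CPM (-0.79). Rps19bp1 stood at 36.9 and 57.4 CPM (-0.64). With Rpl39l, the last 2 were the only members less than 2-fold lower in the stromal cells.

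Some near-identical copies divide their reads in a way that these counts cannot resolve. Rps27 and Rps27rt share 341 identical bases, 171 of them unbroken within the last 200 bases, and Rps27rt stood at 64.1 and 156 CPM (-1.29). Rpl9 shares 402 bases with Rpl9-ps6, Rpl10 shares 740 bases with Rpl10-ps3 and Rpl36a shares 287 bases with Rpl36a-ps1. Cell Ranger discards a read that fits more than 1 gene equally well, so the level of each of these genes is uncertain. Rpl13, Rpl13a, Rpl36al and Rps10 each overlap another protein-coding gene model on the same strand and carry the same doubt. The pseudogenes drew 26836 UMIs (Rpl9-ps6), 15921 UMIs (Rpl10-ps3) and 12228 UMIs (Rpl36a-ps1) and were left out by the rule.

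The levels of the members in each other named class were correlated with those in erythroid-like cells. Over all kept cells the highest were Rplp1, Rpl13, Rps12 and Rpl41, at 8592, 8253, 8235 and 8133 CPM in erythroid-like cells. The lowest subunit genes were Rpl29, Rpl35, Rpl10, Rpl31 and Rpl4, the last at 1610 CPM. The highest subunit gene was 5.34 times the lowest in erythroid-like cells, 6.44 times in LEPR stromal-like and 9.35 times in plasma cell-like cells. Pearson's r of the members' log2(CPM + 1) with erythroid-like cells was 0.99 for megakaryocyte-like, 0.97 for fibroblast-like, 0.97 for plasma cell-like, 0.97 for endothelial-like and 0.93 for LEPR stromal-like cells, across 84 genes that are not independent and share the cells' depth. These 84 include genes far below the subunit genes, such as Rpl39l at 1.53 and Rps19bp1 at 57.4 CPM in erythroid-like cells. Such low genes widen the range over which r is taken, and r over the 77 subunit genes alone was not computed. Relative to the summed members of each class, Rps20 varied least among the subunit genes, by 0.10 on the log2 scale between its lowest and highest class, and Rpl6 varied most, by 1.10, with 1070 CPM in plasma cell-like and 4234 CPM in megakaryocyte-like cells.

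The 20 members whose human counterparts are mutated in Diamond-Blackfan anaemia were all at least 2-fold lower in LEPR stromal-like cells, as were 81 of all 84 members and 19.3% of all genes, with a median log2 ratio of -2.30. Rps19, the most often mutated, stood at 1030 and 4874 CPM (-2.24), Rpl5 at 435 and 2179 CPM (-2.32) and Rpl11 at 851 and 4089 CPM (-2.26). The median over all 84 members, these genes included, was -2.26.

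Fibroblast-like cells lay between the stromal and erythroid-like classes. Of 84 members, 79 were at least 2-fold higher in fibroblast-like than in LEPR stromal-like cells and 1, Rpl39l, was at least 2-fold lower, with a median log2 ratio of 1.44. Over 12288 genes tested 11.8% were that much higher and 19.6% that much lower. The fibroblast-like cells also held more of the erythroid list (6133 against 2451 CPM) and of globins (0.476% against 0.188% of UMIs). They held more of the osteoblast list as well (22815 against 5088 CPM). How much of the difference in members came from free RNA or from other cells was not tested. Rpl10, a late-joining protein of the 60S subunit, differed most among subunit genes, at 1695 CPM in fibroblast-like and 428 CPM in LEPR stromal-like cells.

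The erythroid-like cells were next divided by the share of their UMIs that came from globin genes, which rises as erythroblasts mature. The members took 31.8% of UMIs in 1917 cells with under 0.5% globin, 31.9% in 793 cells with 0.5 to 1%, 33.3% in 1630 cells with 1 to 2.5%, 33.3% in 1506 cells with 2.5 to 6%, and 30.9% in 582 cells with 6% or more. In the single tables the lowest globin group gave 31.8% and 31.8% and the highest 30.9% and 30.9%. Since globin and members share a total, the share was also taken of non-globin UMIs, where it was 31.9%, 32.2%, 33.9%, 34.6% and 34.0%. The summed share of the groups thus kept to a narrow band while globins went from 0.198% to 9.12% of UMIs, but the clusters within a group did not. In the lowest globin group it was 17.9% in 284 cells of the cluster led by Hspa1b, 22.6% in 653 cells of that led by Gm26917, 32.3% in 469 cells of that led by Ydjc and 38.4% in 416 cells of that led by Prelid2. Within the cluster led by Gm26917 the share was 22.6%, 28.03%, 31.5% and 34.3% along the first 4 globin groups, and 37.8% in the 3 cells of the highest.

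The log2 ratio of the share between the highest and lowest globin group was -0.04 of all UMIs and 0.09 of non-globin UMIs, so that its direction depended on the total used. The mean of single cells, a window of depth and thinning of each cell also gave a higher share in the high-globin cells (0.15, 0.29 and 0.14). In the lowest 2 groups the median cell held 28.8% and 29.0%, and only 894 of the 1917 cells of the lowest group lay outside the low-depth clusters. Without those clusters the 5 shares were 33.7%, 33.6%, 33.9%, 33.4% and 30.9%, and the log2 ratio was -0.13.

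**Figure D3:**
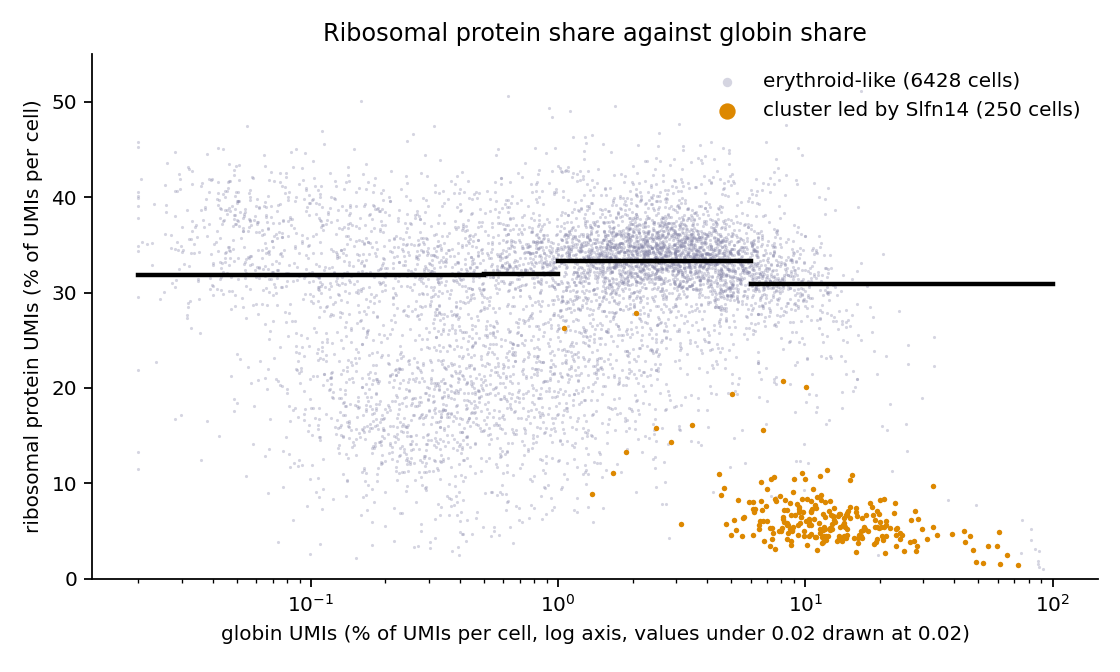
Ribosomal protein share (vertical) against globin share (horizontal, log axis) of single erythroid-like cells (grey) and of the cluster led by Slfn14 (orange), with black bars for the share of summed UMIs in each globin group of erythroid-like cells. The bars lie between 30.9% and 33.3%, while the median cell of the Slfn14 cluster lies at 5.70%.

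Gene by gene, none of the 84 members differed by 2-fold between the highest and lowest globin groups over cells of all depths. Among cells of 2000 to 10000 UMIs some did. Here 63 cells were in the highest and 898 in the lowest globin group, and these differed in cluster. Of the 63, 29 lay in the low-depth cluster led by histone genes, against 1 of the 898, of which 801 lay in low-depth clusters. Of the members, 4 were at least 2-fold higher (Rps15a at 1.23, Rpl9 at 1.07, Rpl39 at 1.02 and Rps7 at 1.02) and 4 lower, among them Rpsa at -1.16 and Rpl36 at -1.07. Of 12123 genes, 6.76% were that much higher and 53.7% that much lower there. With each cell thinned to 2000 UMIs 1 member was 2-fold higher and 2 lower, with Rpl36 at -1.12, where 6.27% and 42.8% of 11966 genes were. Over cells of all depths, among 12788 genes tested, 5.97% were at least 2-fold higher and 33.8% at least 2-fold lower, and the median log2 ratio was -0.58 over all genes and -0.04 over the members. Of all UMIs, 34 members were higher and 50 lower, and of non-globin UMIs 60 were higher and 24 lower. The highest ratios were those of Rps3a1 at 0.22 (0.20 to 0.23), from 4103 to 4771 CPM, Rps16 at 0.18, Rpl9 at 0.16, Rpl39 at 0.15 and Rps26 at 0.15.

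Only Rps19bp1 at -0.90, Rpl7l1 at -0.74 and Rpl36 at -0.59 (-0.61 to -0.58) were at least 1.5-fold lower and none was 1.5-fold higher, where 49.8% of all genes were that much lower and 10.6% that much higher. Rpl36 went stepwise from 4443 CPM through 4183, 3798 and 3445 CPM to 2943 CPM along the globin groups. Without the low-depth clusters, in which Rpl36 was high, it went from 3859 to 2883 CPM (-0.42), while Rps19bp1 (-0.95), Rpl7l1 (-0.85) and Rpl36al (-0.66) moved a little further from 0 and Rps3a1 came to 0.10. Rpl36al (-0.56), Rpl37a (-0.40) and Rps27l (-0.38) came next, and Rpl37a went from 4679 to 3557 CPM. The 40S share of member UMIs was 44.1% in the lowest and 44.9% in the highest globin group. None of the 20 Diamond-Blackfan genes differed by 2-fold over cells of all depths, with a median ratio of -0.01, but Rps15a and Rps7 were the 2 of them at least 2-fold higher among cells of 2000 to 10000 UMIs, where 4 of 84 members and 6.76% of all genes were. No member differed by 2-fold without the low-depth clusters either, where 8.6% of 12689 genes were at least 2-fold higher and 31.0% lower, and the median over the members was then -0.14.

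**Figure D4:**
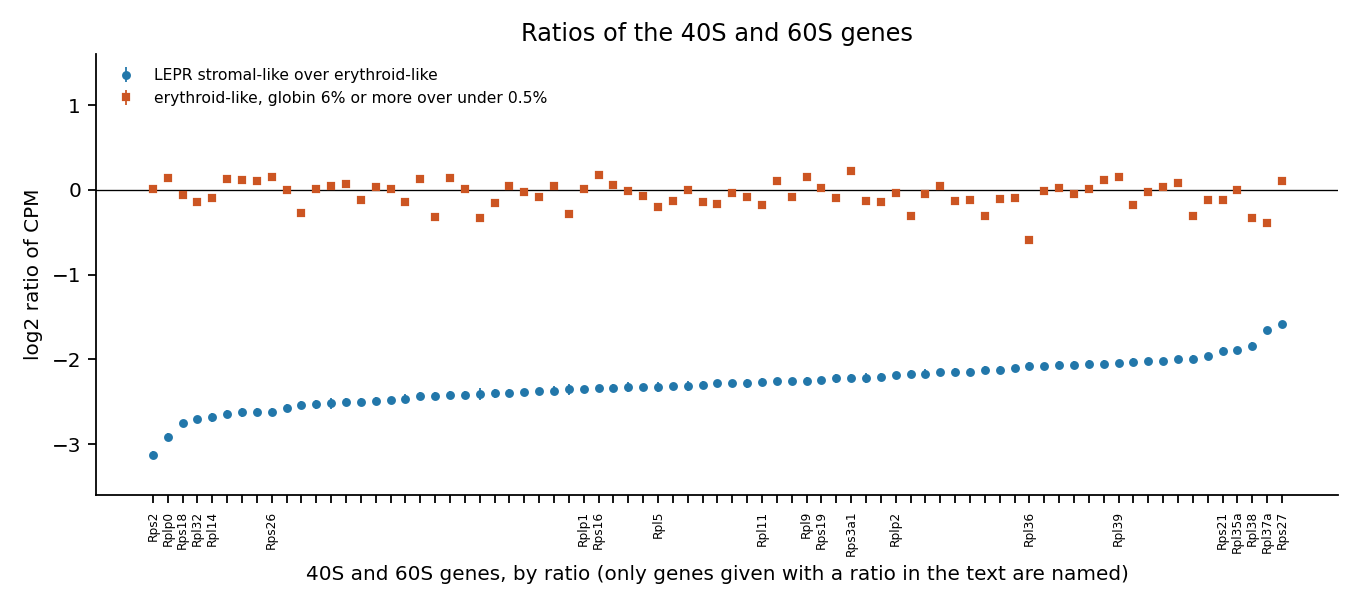
Log2 ratios of CPM (vertical) for the 77 genes of the 40S and 60S subunits (horizontal), ordered by the ratio of LEPR stromal-like to erythroid-like cells (blue), with the ratio of the highest to the lowest globin group of erythroid-like cells in orange. Genes named on the axis are among those given with a ratio in the text, and bars are 95% counting intervals; blue points run from -3.13 to -1.59, while the orange points stay between -0.59 and 0.22.

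The factors that assemble ribosomes did not share this flat course. Of 34 ribosome biogenesis genes, 28 were at least 2-fold lower in the highest than in the lowest globin group, none was 2-fold higher, and the median log2 ratio was -1.76, where 33.8% of all genes tested were that much lower, with a median of -0.58. Together they took 1.11%, 0.826%, 0.643%, 0.475% and 0.336% of UMIs along the globin groups. The largest ratios were those of Rrp9 (-2.67), which binds the U3 snoRNP, and Mybbp1a (-2.65). Npm1, a nucleolar chaperone of ribosomal proteins, went from 3310 to 704 CPM, Ncl, the nucleolin gene, from 2677 to 777.4 CPM, and Polr1b, a subunit of the polymerase that transcribes ribosomal RNA, from 22.4 to 3.95 CPM. Npm1 and Ncl were singled out for their level after the values were seen. Without the low-depth clusters 27 of 34 were at least 2-fold lower, with a median of -1.84, against 31.0% of 12689 genes and a median of -0.47. The ratio nearest to 0 was that of Emg1, an 18S rRNA methyltransferase, at -0.61.

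Among the translation factors a smaller share than of all genes (33.8%) was at least 2-fold lower in the highest globin group. Of 13 factors and other genes with known TOP tracts, 2 were (Eif4b at -1.24 and Hnrnpa1 at -1.17), the median was -0.24, and their summed share was 1.73% in the lowest and 1.62% in the highest. None of 24 initiation factors differed by 2-fold, with a median of -0.51, near the -0.58 of all genes. Of 78 mitochondrial ribosomal protein genes 16 were at least 2-fold lower, with a median of -0.66, which is also near that of all genes. Fau and Rack1, left out by the rule, had ratios of 0.05 and -0.07.

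Between LEPR stromal-like and erythroid-like cells each of these lists had a negative median log2 ratio, where that of all 12957 genes was 0.79 and 19.3% were at least 2-fold lower. At least 2-fold lower in the stromal cells were 12 of 13 TOP genes (median -1.96), 17 of 24 initiation factors (-1.36), 23 of 34 ribosome biogenesis genes (-1.20) and 49 of 78 mitochondrial ribosomal protein genes (-1.10). Fau and Rack1 had ratios of -2.17 and -2.65. Eif4a2, an RNA helicase of the cap-binding complex, was the initiation factor at least 2-fold higher in stromal cells, with a ratio of 1.55. Non-member genes whose log2(CPM + 1) over the 5 other classes and the 5 globin groups was among the most like that of the summed members were Cox4i1 (Pearson's r 0.99), Rack1 (0.99), Eif3f (0.99), Uqcrh (0.99), Rpl36a-ps1 (0.99), Eef1b2 (0.98), Cox7c (0.98), Rbm3 (0.98) and Eef1d (0.98), out of 8610 genes and over 10 points that share libraries and differ in depth.

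An unnamed cluster of 250 cells, led by Slfn14, lay below the band of the globin groups. It held 13 of 14 erythroid markers, globins took 17.5% of its UMIs, and its median cell had 1640 UMIs. Slfn14 encodes a ribosome-associated endoribonuclease. Members took 7.42% of its UMIs (7.32 to 7.52%) and 8.997% of its non-globin UMIs, against 30.9% and 34.0% in the erythroid-like cells with the most globin. Within the cluster the share was 16.4% in 22 cells with under 6% globin, 6.28% in 181 cells with 6 to 20%, and 4.03% in 47 cells with 20% or more. The 103 erythroid-like cells of under 2000 UMIs, which were as shallow, held 18.1%. They also differed in rRNA-like UMIs (24.5% against 5.24% in the cluster) and in globins (1.69% against 17.5%). Whether depth set the share of the cluster was not tested.

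Of the members, 82 of 84 were at least 2-fold lower in this cluster than in the erythroid-like cells of 6% or more globin and none was 2-fold higher, with a median log2 ratio of -2.06. Of 8617 genes tested in this comparison, 36.7% were that much lower and 24.7% that much higher, with a median of -0.47. The members' log2(CPM + 1) had a Pearson's r of 0.99 with the erythroid-like cells over 84 genes. These include the low-level paralogs and Rps19bp1, and r over the subunit genes alone was not computed. Rpl9 had the lowest ratio, -2.57 (610 against 3626 CPM), and among subunit genes Rpl36 the highest, -1.42 (1103 against 2943 CPM). The only member with a higher value was Rpl39l, from 1 UMI.

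In the cluster led by Slfn14 a few genes of the translation lists, singled out after their values were seen, had far higher levels while the ribosomal proteins were low. Ube2o, the ubiquitin-conjugating enzyme that marks ribosomal proteins for removal in reticulocytes, stood at 1315 CPM against 28.3 CPM in the highest globin group, a log2 ratio of 5.54 (5.30 to 5.77). Eif5, which acts on start codon selection, stood at 4817 against 290 CPM, 16.6-fold higher, and Pabpc1, the poly(A)-binding protein and itself a TOP gene, at 3473 against 503 CPM, 6.90-fold higher. The remaining 12 TOP genes and 23 initiation factors had lower values, but the intervals of 1 of these TOP genes (Eif4b) and 5 of these initiation factors (Eif3c, Eif4a2, Eif4g1, Eif4g2 and Eif5b) included no change. The translation elongation factor Eef1a1 stood at 975 against 4226 CPM. Of the 8 rescue and turnover factors, most of which free stalled ribosomes, 3 had an interval above no change: Ube2o, Nemf at 134 against 57.6 CPM and Usp10 at 79.6 against 42.7 CPM. The intervals of the other 5 included no change, with lower values for Pelo, Abce1, Zfp598 and Ltn1 and a higher one for Hbs1l. At least 2-fold higher were Ube2o and Nemf, where 24.7% of 8617 genes were. At least 2-fold lower were Zfp598 and Ltn1, from 3 UMIs each, where 36.7% of all genes were. Ube2o, Eif5 and Pabpc1 could take part in the clustering, so that these are descriptions of the cluster. Of the 10 non-globin erythroid genes, 7 had an interval above no change there and 3 below. No share of all genes was taken by interval, so how these counts stand against all genes was not tested. At least 2-fold higher were Alas2, Slc4a1, Tfrc, Ermap and Rhag, and at least 2-fold lower Klf1 and Gata1, where 24.7% and 36.7% of 8617 genes were. Alas2, Slc4a1 and Tfrc, genes of haem synthesis, the red cell membrane and iron uptake, stood at 1185, 3566 and 3111 CPM against 261, 810 and 1176 CPM, while the transcription factors Klf1 and Gata1 stood at 130 and 34.96 CPM against 353 and 113 CPM, and the carbonic anhydrase Car2 at 2880 against 5100.2 CPM.

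**Figure D5:**
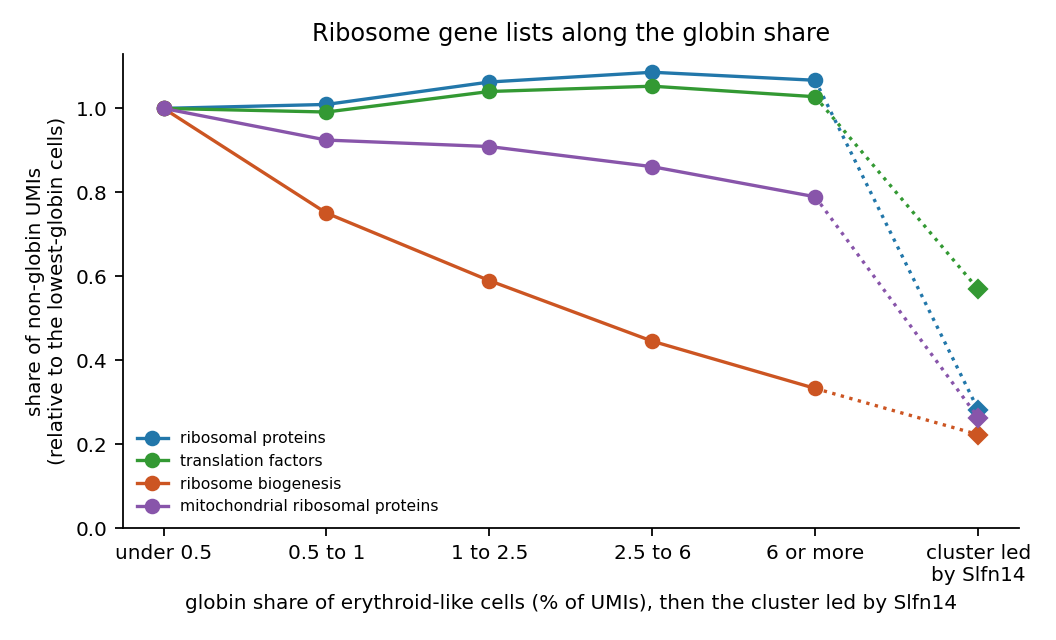
Share of non-globin UMIs of 4 gene lists (vertical, relative to the erythroid-like cells with under 0.5% globin) along the globin groups and in the cluster led by Slfn14 (horizontal). Ribosomal proteins stay between 1.00 and 1.09 up to the highest globin group, where ribosome biogenesis genes stand at 0.333, and reach 0.282 in the cluster led by Slfn14.

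The make-up of the family also differed within the erythroid-like cells, between the 4 low-depth clusters and the others. In the low-depth clusters members took 24.4% of UMIs and rRNA-like genes 11.3%. Hspa1a and Hspa1b together stood at 603 CPM there, against 167 CPM over all erythroid-like cells, these clusters included. They ran from 129 CPM in the low-depth cluster led by Lars2 to 1018 CPM in that led by Hspa1b. In the other erythroid-like clusters they ran from 26.6 CPM (led by Plek2) to 270 CPM (led by Fn3k). The members took 23.2% in the 3 low-depth clusters led by Gm26917, Hspa1b and Lars2. In the fourth, of 239 cells led by histone genes with 998 CPM of Hspa1a and Hspa1b, they took 33.5%. Over the 4 low-depth clusters, 23 of 84 members were at least 2-fold lower than in the others and none at least 2-fold higher. The median log2 ratio was -0.58. Over 12601 genes tested 9.78% were that much lower and 28.6% that much higher, with a median of 0.42. The members spread widely: Rpl10 had a ratio of -1.91 (565 against 2126 CPM), Rpl7 of -1.71, Rpl9 of -1.66, Rps7 of -1.57 and Rps2 of -1.43, while Rpl36 had 1.00 (6974 against 3489 CPM), Rpl37a 0.48, Rpsa 0.38 and Rps12 0.33. This spread among subunit genes was wider than that along the globin groups, where subunit genes ran from -0.59 to 0.22. Whether depth, stress or RNA quality set it was not tested.

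Among the other erythroid-like clusters the share was highest in 516 cells led by Prelid2, at 38.6%, with 0.370% globin and a median of 18484 UMIs, and lay between 32.1% and 34.4% in the 4 deepest clusters. The unnamed cluster led by Tufm (356 cells, median 2448 UMIs) held 33.03%, and that led by Igfbp4 (239 cells), in which 66 cells were called doublets, held 28.1%. The median cell of the cluster led by Igfbp4 held only 13.2%, with quartiles of 9.69 and 24.5%.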

How the data were processed

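The deposited files held UMI counts per gene and barcode in 2 tables labelled as replicates, which the authors made with Cell Ranger on mm10 and analysed with Seurat 4.0 in R 4.0.3. The matrix headers give software version 3.0.2, which is not the Cell Ranger version in the study's methods. The tables held 116827845 and 120556381 UMIs. They were summed per barcode, since they held the same barcodes. Barcodes with at least 200 genes and at most 20% mitochondrial UMIs were kept. Cells were clustered in R 4.3.3 (Seurat 5.3.0, sctransform 0.4.2, 3000 variable genes without the members, 30 principal components, resolution 0.8) and named from marker lists. A cluster was matched to the marker list of which the largest share was found, and stayed unnamed where fewer than 3 markers were found. It also stayed unnamed where no leading gene was on that list and its median UMIs were under the sample median divided by 3. Endothelial-like cells were split from a fibroblast-like cluster at resolution 1.2, a choice made after seeing the data. Scrublet in scanpy 1.11.5 called 224 cells (2.34%) doublets, which were kept. UMIs were summed per class and expressed as shares or CPM, with exact binomial, Poisson and conditional binomial 95% intervals on the mean of the tables. Percentages of cells with a UMI have binomial intervals over the cells of the summed tables. Ratio intervals were tested on simulated independent Poisson counts, which have neither the overlap of the tables nor variation between cells. Genes were compared where they had at least 100 UMIs over all kept cells and at least 1 UMI in a compared group, or in both for the cluster led by Slfn14, the low-depth clusters and the fibroblast-like cells. Members named were the 5 highest and lowest by level, up to 5 each way per comparison, the paralogs, and members of the gene lists. Some genes that this rule names are not reported here. The members and lists were chosen with earlier results of these data known. Promoters came from RefSeq (GRCm38.p6) and transcripts from GENCODE M21. Results without the low-depth clusters were chosen after seeing the data. The tables share their cells, so no p-value was computed.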

Additional observations from a re-analysis of the deposited data

How the results depend on the processing

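The series is 1 pooled sample, so no value measures variation between animals, and the classes of 43 and 50 cells have the fewest cells behind their values. No paired analysis was possible because both count tables held the same cells of 1 group. The log2 ratio of the share between LEPR stromal-like and erythroid-like cells kept its direction under all 18 alternatives. It was -2.30 with at most 10% mitochondrial UMIs, -2.44 without called doublets, -2.31 without globin UMIs, -2.27 without mitochondrial UMIs, -2.29 as a mean of cells, -2.33 with members among the variable genes, -2.40 from log-normalized counts, -2.31 at resolution 1.2, -2.27 with the unnamed clusters nearest to the erythroid list added, -2.07 in cells of 2000 to 10000 UMIs and -2.31 with cells thinned to 2000 UMIs. Of the alternatives chosen after seeing the data, it was -2.32 without the low-depth clusters and -2.16 without rRNA-like UMIs. Each table alone gave -2.28 and -2.28. The members at least 2-fold apart numbered 76 to 82 of 84 over 18 alternatives, and 84 were at least 1.5-fold apart.

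The ratio between the globin groups reversed under 4 of 18 alternatives, to 0.0935 without globin UMIs, 0.15 as a mean of cells, 0.29 at 2000 to 10000 UMIs and 0.14 after thinning, for which 8879 of 9573 cells were deep enough. It was -0.0695 at 10% mitochondrial UMIs, -0.0367 with at least 500 genes, -0.0592 without mitochondrial UMIs, -0.0351 from log-normalized counts, -0.063 with the unnamed clusters added and, as choices made after seeing the data, -0.13 without the low-depth clusters, -0.0675 with the cluster led by Slfn14 added and -0.0565 without rRNA-like UMIs. The tables alone gave -0.045 and -0.043. The cause of the reversals was not tested, beyond the first, in which globin itself leaves the total. Members at least 2-fold apart there were 0 in most settings, 8 at 2000 to 10000 UMIs (Rpl9, Rps15a, Rps7 and Rpl39 higher, Rpsa, Rps19bp1 and Rpl36 lower, Rpl39l at 0 UMIs), 3 after thinning (Rps19bp1 and Rpl36 lower, Rpl39l 2 against 3 UMIs), 1 with genes of at least 10 UMIs (Rpl3l, 0 against 8 UMIs) and 3 at a limit of 1.5-fold. The 40S share ratio was -0.0244, with -0.0142 as a mean of cells, -0.0112 at 2000 to 10000 UMIs, and -0.0269 to -0.0218 in single tables.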
